A study of Mus musculus with 15 samples.

Results

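The genes described here are 10 immune checkpoint and costimulatory genes, namely the ligands Cd80, Cd86 and Cd274, the inhibitory receptors Btla, Pdcd1, Ctla4, Lag3, Havcr2 and Tigit, and the TNF receptor family member Tnfrsf8. They were chosen on these same data, because Btla and Cd86 differed between mice with the kinase-dead M46 transgene and mice labelled as having the wild-type HPK1 transgene, and the other genes were added as relatives of that pair. All 10 were listed among the 49585 genes of the count tables for the HC and KMC experiments and among the 15175 genes of the table for the MC experiment. Because the difference between the MC and HC comparisons chose Btla and Cd86, their values in those comparisons are given as a description with no test.

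HPK1, encoded by Map4k1, is a kinase best known as a brake on antigen receptor signalling in lymphocytes, and the study asked what its kinase activity does in pancreatic acinar cells during injury and neoplasia. RNA from whole C57BL/6 mouse pancreas was sequenced in 15 libraries, each made from the pooled pancreata of 3 mice. Transgenes were switched on by tamoxifen through Ela-CreERT (Bac-cre), whose elastase promoter is active in acinar cells, so immune cells were not the targeted cells and every mouse kept its own Map4k1 gene. MC mice carried the kinase-dead M46 transgene with Bac-cre (3 libraries, age 2 months) and were compared with Bac-cre control mice of the same age (3 libraries); HC mice carried the wild-type HPK1 transgene with Bac-cre (3 libraries, age 4 months) and were compared with mice labelled wild type (2 libraries, age 4 months). In the study's account these cerulein experiments used transgenic mice injected with cerulein, a cholecystokinin analogue that causes acute pancreatitis. Its accounts of the control mice differ, giving them cerulein in one place and buffer in another, and the labels name neither. Ages here are those of the labels, and the study gives the mice of both cerulein experiments a single age range, and the age on the HC labels lies above it. KC mice, a neoplasia model made with Bac-cre (2 libraries, age 15 months), were compared with KMC mice, which carried the M46 transgene in addition (2 libraries, age 9 months); the study describes this tissue as pancreatic tumour, whereas the labels give pancreas.

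CD80 and CD86 on antigen-presenting cells engage CD28 to costimulate T cells and engage CTLA4 to restrain them, and CD274, also called PD-L1, binds the receptor encoded by Pdcd1. BTLA, LAG3, TIM3 (Havcr2) and TIGIT are further receptors that dampen lymphocyte responses, and CD30 (Tnfrsf8) is a TNF receptor family member of activated lymphocytes. In the pancreas most of these genes are expected in infiltrating leukocytes, although CD274 can also be induced in epithelial cells by interferon.

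Total counts ranged from 29766575 to 38745907 per library, and 3 counts, taken as the floor of detection, corresponded to between 0.0357 and 0.204 CPM (counts scaled to library size and normalised by trimmed mean of M values, TMM). Levels below are TMM-scaled CPM, with scaling done separately in each of the 3 tables, so levels are compared with their own controls only. Each library was a pool, and nothing in the labels says whether pools of a group came from separate cohorts, so p-values measure only the spread between these libraries. Intervals and floors cover counting error only.

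Map4k1 was examined first, since its transcript should be raised by the transgenes if their reads were counted to it. It stood at 8.32, 6.79 and 7.51 CPM in MC against 3.8, 4.14 and 2.34 CPM in the controls, and at 5.92 and 11.4 CPM in KMC against 0.545 and 1.55 CPM in KC. In HC it stood at 7.33, 5.05 and 7.93 CPM against 15.4 and 11.5 CPM in the controls. That is below both controls, whereas counted transgene reads would raise it, so these are called the libraries labelled HC. Transgene reads that were not counted to Map4k1 and HC labels or columns that were switched cannot be told apart here. By assays other than sequencing, the study reports high HPK1 kinase activity with lower Ras and Erk activity in HC mice. Those assays measured mice and not libraries, so a switch of labels or columns was not tested. From sequencing, the study reports inflammatory gene sets as suppressed in HC mice, a result that rests on the same labels. If the HC labels or columns were switched, every HC direction below would turn, including that of Tnfrsf8. Relative to Ptprc, the pan-leukocyte gene that encodes CD45, Map4k1 averaged 0.146 ± 0.0186 (SD, n = 2) in the HC controls and 0.141 ± 0.0226 (SD, n = 3) where HC was the label, so the pan-leukocyte gene moved with it. The same ratio averaged 0.175 ± 0.0377 (SD, n = 3) in MC, with a control ratio of 0.257 ± 0.0417 (SD, n = 3), and 0.186 ± 0.0118 (SD, n = 2) in KMC, with a KC ratio of 0.164 ± 0.0142 (SD, n = 2). Relative to Ptprc, Map4k1 was therefore not raised in MC.

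Other properties of the libraries also differed with the groups. Counts from a list of 28 acinar genes, 27 of them in the MC table, took 46.02%, 37.26% and 36.55% of the MC libraries and 50.52%, 42.05% and 55.92% of their controls; they took 6.77%, 8.98% and 5.74% of the libraries labelled HC and 8.68% and 6.86% of their controls. In the KMC experiment they took 48.68% and 24.67% of the KMC libraries against 68.57% and 60.18% of the KC libraries, so acinar RNA was a smaller share in both KMC libraries. The 95% Wilson half-width of each of these shares was at most 0.018 percentage points. The female-specific transcript Xist was at 406 and 306 CPM in KMC and at 0.681 and 0.348 CPM in KC, while the Y-linked gene Ddx3y was at 0 counts in both KMC libraries and at 157 and 448 counts in KC. KMC and KC therefore differed in sex and age as well as in genotype, and these cannot be told apart. Among the libraries labelled HC, replicate 3 had 24 counts of Xist and 1525 of Ddx3y, whereas replicates 1 and 2 and both controls had 0 counts of Ddx3y. The MC table lists neither gene, so the sex of the MC libraries and their controls was not analysed here.

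Each checkpoint gene was compared with its own controls, and in MC and HC the counts given here are over the 8 genes other than Btla and Cd86. In MC, 7 of the 8 passed the filter on low counts, and 5 of these 7 lay above every control library, against 10.9% of all 13902 genes tested in that direction; Cd80 and Havcr2 overlapped the controls. For HC all 8 passed; 4 lay below both controls, against 16.1% of all 18407 genes tested, 1, Tnfrsf8, lay above both, against 17.5%, and Pdcd1, Lag3 and Tigit overlapped the controls. In KMC 9 of the 10 genes passed, and all 9 of these lay above both KC libraries, against 34.4% of all 15733 genes tested. A gene with few counts passes the filter only where a group is high, and the other genes were added as relatives of Btla and Cd86, so nothing is read from these counts about the list as a whole.

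Few of these differences passed the test across all genes. A call required a p of 0.05 or less from edgeR's quasi-likelihood test after Benjamini-Hochberg adjustment, and a log2 fold change of 1 or more in size. In MC edgeR called 0 of the 7 genes other than Btla and Cd86 and 0% of all genes tested; 4 of the 7 had an unadjusted p under 0.05, against 14.7% of all genes, and DESeq2 called 3 (Cd274, Pdcd1 and Ctla4), against 3.26%. For HC edgeR called 1 of the 8, Tnfrsf8, which was higher, against 0.565% of all genes; 4 of the 8 had an unadjusted p under 0.05, against 15.9%, and DESeq2 called 2, Tnfrsf8 as higher and Ctla4 as lower, against 2.54%. In KMC edgeR called 0 of 9, against 0.0191% of all genes; 8 of 9 had an unadjusted p under 0.05, against 25.6%, and DESeq2 called 6 (Lag3, Havcr2, Btla, Cd80, Cd86 and Cd274), against 13.7%. Pdcd1, Ctla4 and Tigit were among 1221 genes to which DESeq2 gave no adjusted p in KMC, so it could not call these 3. Single libraries and the model moved these counts. Leaving out MC replicate 1 or MC control replicate 2 gave 1 edgeR call among those 7 genes in MC, Cd274, with 171 and 718 genes called in all. Leaving out HC replicate 2, HC replicate 3 or either HC control gave 0 calls, and leaving out KMC replicate 1 gave 6 calls in KMC, with 2312 genes called in all. In KMC edgeR also called 7 of the 9 with the replicate number as a block, 8 with acinar genes left out of the library size and 9 with library size alone, with 2464, 1862 and 4714 genes called in all.

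**Figure D1:**
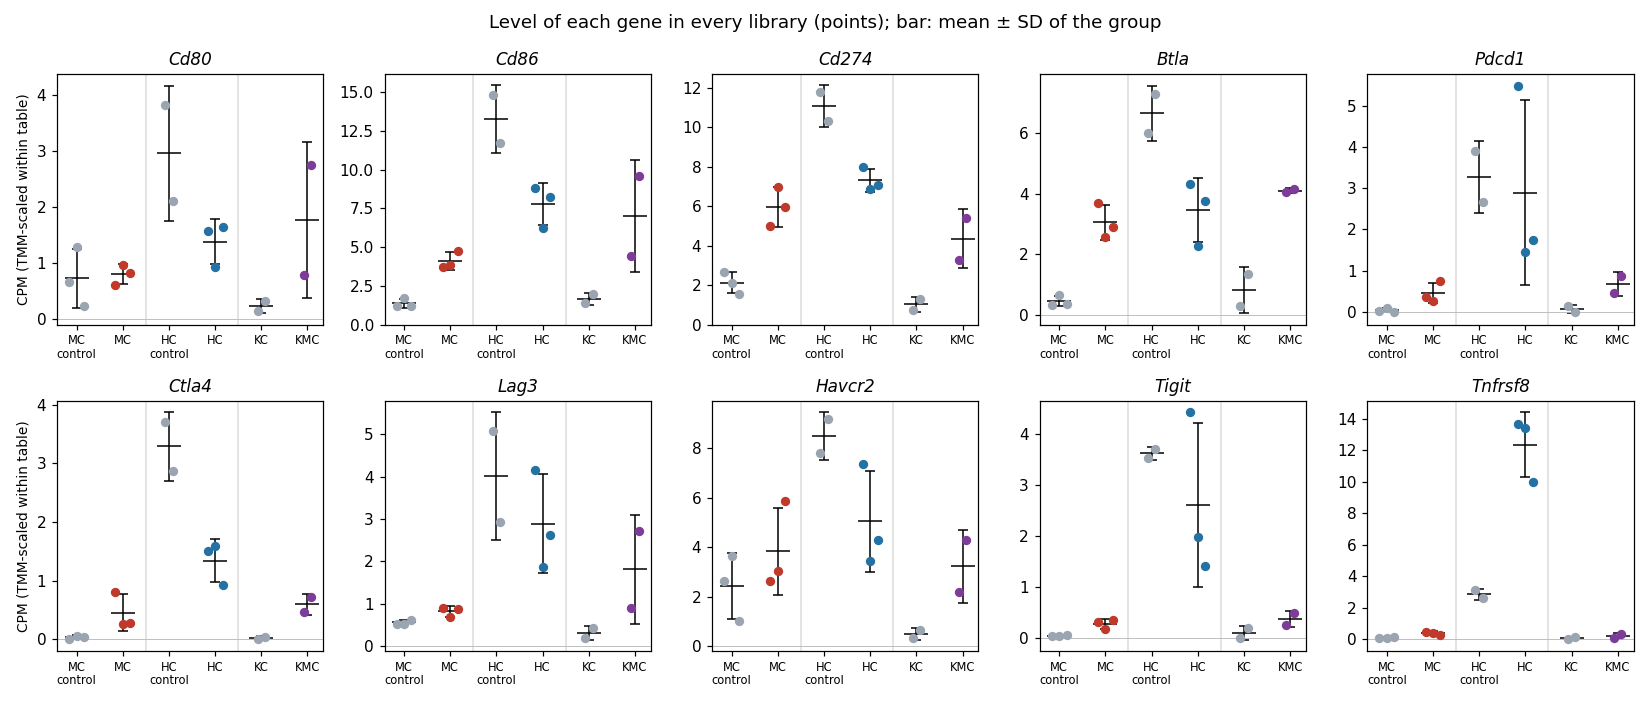
TMM-scaled CPM of each gene in every library (points), with the mean and SD of each group (black bars), for MC and its controls, the libraries labelled HC and their controls, and KC and KMC; vertical axes start at or just below 0 and differ between panels. Cd86, Cd274 and Btla were above the controls in every MC and KMC library and below them in every library labelled HC, whereas Tnfrsf8 was between 9.96 and 13.7 CPM in the libraries labelled HC and at 3.1 and 2.59 CPM in their controls.

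Among the ligands, Cd86 and Cd274 had the same pattern. Cd86 stood at 3.68, 3.83 and 4.77 CPM in MC and at 1.22, 1.7 and 1.17 CPM in the controls, and the groups did not overlap. It stood at 8.8, 6.26 and 8.25 CPM in the libraries labelled HC and at 14.8 and 11.7 CPM in their controls, so each of the 3 was below both controls. The fitted log2 fold change of Cd86 was 1.58 ± 0.24 (SE) in MC and -0.77 ± 0.21 (SE) in the libraries labelled HC. In KMC it stood at 4.45 and 9.57 CPM against 1.36 and 1.94 CPM in KC, a log2 fold change of 2.08 ± 0.51 (SE) with an edgeR adjusted p of 0.0947. The higher KMC library was replicate 2, which also had the smaller acinar share.

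Cd274 encodes PD-L1, the ligand of the Pdcd1 receptor. It stood at 4.97, 6.96 and 5.93 CPM in MC and at 2.64, 2.11 and 1.57 CPM in the controls. All 3 MC libraries were above all 3 controls, with a log2 fold change of 1.49 ± 0.25 (SE) and an edgeR adjusted p of 0.083. Each library labelled HC, at 7.98, 6.86 and 7.07 CPM, was below the 11.8 and 10.3 CPM of both controls, with a log2 fold change of -0.6 ± 0.17 (SE) and an edgeR adjusted p of 0.18. In KMC it stood at 3.29 and 5.4 CPM against 0.749 and 1.28 CPM in KC, which gave a log2 fold change of 2.08 ± 0.53 (SE) and an edgeR adjusted p of 0.0981. An antisense gene overlaps Cd274 in the annotation; the kit marks strand, but the counting setting is not given in the sources used here, so a contribution of its reads cannot be told apart.

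Cd80, the other ligand of CD28 and CTLA4, differed from Cd86 in MC. It ranged from 0.609 to 0.964 CPM in MC and from 0.225 to 1.28 CPM in the controls, so the groups overlapped, and its log2 fold change was 0.11 ± 0.55 (SE), with an edgeR adjusted p of 0.931. Its direction in MC turned to -0.05 without MC replicate 2 and to -0.27 without MC control replicate 3, and its value was 0.8 without MC control replicate 2. Where HC was the label, Cd80 ranged from 0.922 to 1.65 CPM, below both controls at 3.82 and 2.1 CPM, with a log2 fold change of -1.1 ± 0.39 (SE) and an edgeR adjusted p of 0.251. In KMC it stood at 0.786 and 2.76 CPM against 0.136 and 0.31 CPM in KC, which gave a log2 fold change of 2.91 ± 0.86 (SE) and an edgeR adjusted p of 0.117.

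Among the inhibitory receptors, Btla, whose ligand is the TNF receptor family member HVEM, stood at 3.68, 2.56 and 2.91 CPM in MC and at 0.331, 0.655 and 0.359 CPM in the controls. The lowest MC library was above the highest control. Libraries labelled HC had 4.31, 2.26 and 3.77 CPM of Btla, and in their controls at 6 and 7.3 CPM, again without overlap. The log2 fold change of Btla was 2.73 ± 0.35 (SE) in MC and -0.95 ± 0.31 (SE) in the libraries labelled HC. The KMC libraries were close together at 4.05 and 4.15 CPM, whereas KC was at 0.272 and 1.35 CPM, giving a log2 fold change of 2.26 ± 0.69 (SE) with an edgeR adjusted p of 0.123. That value was 1.59 without KC replicate 1 and 3.9 without KC replicate 2.

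Pdcd1 and Ctla4 were near the floor in the MC controls. Pdcd1, which encodes PD-1, had 11, 11 and 30 counts in MC and 1, 3 and 0 counts in the controls, a ratio of pooled counts, scaled by TMM-adjusted library size, of 9.94 (95% exact counting interval 3.66 to 37.8). Ctla4 had 24, 11 and 11 counts in MC and 0, 2 and 1 counts in the controls, a ratio of 11.7 (95% exact counting interval 3.77 to 58.9). Every MC library was above every control for both genes, but edgeR gave adjusted p of 0.163 for Pdcd1 and 0.172 for Ctla4. Leaving out a library moved the fitted log2 fold change in MC, 3.23 for Pdcd1 and 3.5 for Ctla4, between 2.67 and 4.35 and between 2.81 and 4.24. In KMC Pdcd1 had 19 and 74 counts against 2 and 0 in KC, a ratio of 15.1 (95% exact counting interval 4.07 to 127), and Ctla4 had 19 and 60 counts against 0 and 1, a ratio of 25.7 (95% exact counting interval 4.48 to 1030). The width of these intervals reflects the small KC counts, and the edgeR adjusted p was 0.132 for Pdcd1 and 0.0937 for Ctla4.

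The same pair of receptors separated in the HC experiment. Ctla4 stood at 1.51, 1.59 and 0.92 CPM in the libraries labelled HC and at 3.7 and 2.87 CPM in the controls, so the groups did not overlap. Its log2 fold change was -1.29 ± 0.32 (SE), with an edgeR adjusted p of 0.146. Pdcd1 stood at 5.49, 1.46 and 1.74 CPM against 3.9 and 2.66 CPM in the controls. Replicate 1 was above both controls and replicates 2 and 3 were below them, with a log2 fold change of -0.17 ± 0.6 (SE) and an edgeR adjusted p of 0.926. The direction of Pdcd1 rested on single libraries, because its log2 fold change was 0.15 without HC replicate 2, 0.07 without HC replicate 3 and 0.13 without HC control replicate 1, and fell to -1.03 without HC replicate 1. A pseudogene overlaps the span of Ctla4 on the same strand. Whether it overlaps exons of Ctla4 was not examined, so a contribution of its reads cannot be told apart here.

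Tigit, a receptor of T and NK cells for CD155, was the gene that missed the filter in MC. It had 9, 7 and 14 counts in MC and 1 count in each control, a ratio of 7.64 (95% exact counting interval 2.38 to 39.1), and every MC library was above every control. With no filter its edgeR adjusted p in MC was 0.13. Tigit in the libraries labelled HC stood at 4.43, 1.97 and 1.4 CPM around controls at 3.53 and 3.71 CPM, with a log2 fold change of -0.48 ± 0.48 (SE) and an edgeR adjusted p of 0.696; it was -1.1 without HC replicate 1 and -0.19 without HC replicate 3. As for Pdcd1, replicate 1 was the high library. In KMC it had 10 and 40 counts against 0 and 5 in KC, a log2 fold change of 1.66 ± 1.05 (SE) with an edgeR adjusted p of 0.342. With so few KC counts the size is poorly fixed, at 0.91 without KC replicate 1 and 7.1 without KC replicate 2.

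Lag3, which binds MHC class II, and Havcr2, which encodes TIM3 and is also expressed by myeloid cells, had smaller differences in MC. Lag3 ranged from 0.682 to 0.913 CPM in MC and from 0.529 to 0.629 CPM in the controls, with a log2 fold change of 0.55 ± 0.31 (SE) and an edgeR adjusted p of 0.421. Havcr2 ranged from 2.64 to 5.85 CPM in MC and from 1.03 to 3.66 CPM in the controls, with a log2 fold change of 0.64 ± 0.48 (SE) and an edgeR adjusted p of 0.521; it was 0.2 without MC replicate 3 and 1.04 without MC control replicate 2. The Lag3 groups did not overlap, and the Havcr2 groups did. For HC, Lag3 ranged from 1.88 to 4.16 CPM against 5.08 and 2.94 CPM in the controls, with a log2 fold change of -0.47 ± 0.41 (SE) and an edgeR adjusted p of 0.638; it was -0.03 without HC control replicate 1 and -0.83 without HC replicate 1. Havcr2 ranged from 3.46 to 7.35 CPM, below controls at 7.8 and 9.17 CPM, with a log2 fold change of -0.75 ± 0.33 (SE) and an edgeR adjusted p of 0.342. Replicate 1 was again the highest of the 3 libraries for both genes. In KMC the log2 fold change was 2.47 ± 0.78 (SE) for Lag3, with levels of 0.909 and 2.73 CPM against 0.204 and 0.426 CPM, and the edgeR adjusted p was 0.13. For Havcr2 it was 2.65 ± 0.63 (SE), with levels of 2.19 and 4.28 CPM against 0.34 and 0.658 CPM, and the edgeR adjusted p was 0.0901. Over all alternatives the log2 fold change in KMC ranged from 1.48 to 4.02 for Lag3, 2.1 to 4.15 for Havcr2, 1.43 to 3.61 for Cd86, 1.69 to 3.55 for Cd274, 1.75 to 4.48 for Cd80, 2.3 to 8.1 for Pdcd1 and 3.85 to 7.8 for Ctla4.

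Apart from Tnfrsf8, the checkpoint genes had opposite fitted directions in MC and HC, with Tigit fitted in MC only without the filter. Btla and Cd86 were chosen by this contrast. The share of all genes with opposite directions was not computed, so nothing is read from this pattern. The log2 fold changes of Cd80 in MC and Pdcd1 in HC were smaller than their SE and turned when single libraries were left out. Tnfrsf8, which encodes CD30, had the same fitted direction in both experiments. It stood at 13.7, 13.4 and 9.96 CPM in the libraries labelled HC and at 3.1 and 2.59 CPM in their controls, and rose by a log2 fold change of 2.12 ± 0.23 (SE) with an edgeR adjusted p of 0.0386. All 3 libraries were above both controls, including replicate 3 with its Y-linked reads. The size of the difference varied little when a library was left out, between 1.99 without HC control replicate 2 and 2.25 without HC control replicate 1. The call did not hold without HC replicate 2 (edgeR adjusted p of 0.106), HC replicate 3 (0.0649) or either HC control. It held without HC replicate 1 (0.0181), with the replicate block (0.0164), with no filter (0.000957) and with the stricter filter (0.0432). The other scalings and the newer form of the edgeR fit also kept it. Over the alternatives that kept at least 2 libraries in each group, the adjusted p ranged from 2.89e-14, by DESeq2, to 0.106. In MC Tnfrsf8 had 14, 18 and 11 counts against 2, 3 and 3 in the controls, a ratio of 4.11 (95% exact counting interval 1.91 to 10.1), with an edgeR adjusted p of 0.173. In KMC it missed the filter, with 2 and 27 counts against 0 and 3 in KC, so the groups overlapped; the ratio was 3.14 (95% exact counting interval 0.974 to 16.1). Its ligand gene Tnfsf8 went the other way in the HC experiment, with a mean of 4.14 ± 1.28 CPM (SD, n = 3) against a control mean of 8.39 ± 2.17 CPM (SD, n = 2) and an edgeR adjusted p of 0.203; Tnfsf8 was picked out for being that ligand after its values were seen.

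**Figure D2:**
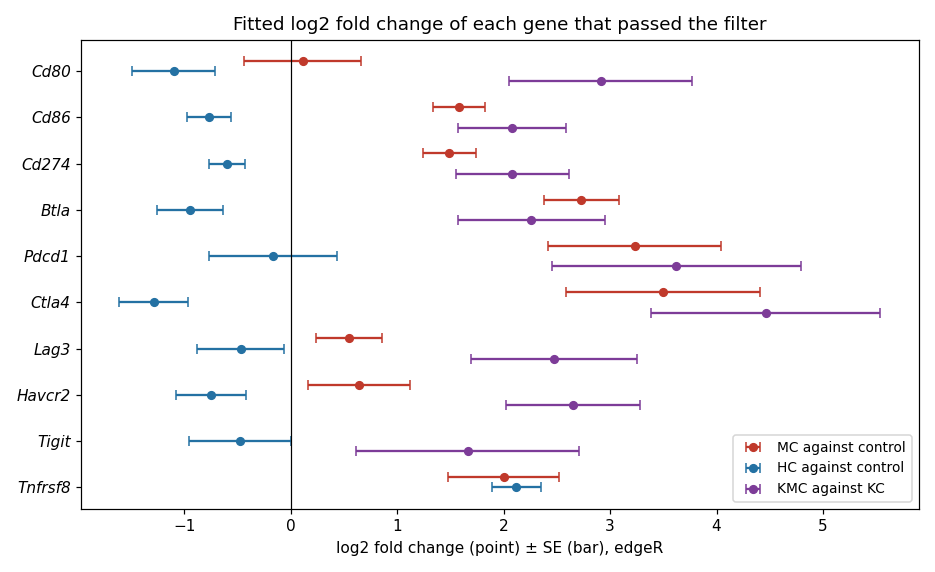
Fitted edgeR log2 fold change (points) and its SE (bars) for each gene that passed the filter on low counts, in MC against control, the libraries labelled HC against control and KMC against KC. Tnfrsf8 lay near 2 in both cerulein experiments, at 2 ± 0.52 in MC and 2.12 ± 0.23 in HC, and fitted values of Pdcd1, Ctla4 and Tnfrsf8 that rest on controls with 3 counts or fewer depend on the prior count.

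The distance between the MC and HC effects was estimated in one edgeR model over the 11 cerulein libraries and 14884 genes, as a description with no test because this contrast chose the genes. The MC effect minus the HC effect, on the log2 scale, was 3.67 ± 0.47 (SE) for Btla and 2.34 ± 0.31 for Cd86. It was 2.08 ± 0.3 for Cd274, 4.82 ± 0.93 for Ctla4, 3.43 ± 1.13 for Pdcd1 and 3.33 ± 0.9 for Tigit, and it was 1.2 ± 0.71 for Cd80, 1.38 ± 0.65 for Havcr2 and 1.01 ± 0.51 for Lag3. For Tnfrsf8 it was -0.11 ± 0.67, within 1 SE of 0.

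Levels were compared between genes only per length, as CPM per kilobase of merged exons, and are means ± SD. In the MC controls Havcr2 at 0.899 ± 0.487 (n = 3) and Cd274 at 0.583 ± 0.148 came highest and Ctla4 at 0.0149 ± 0.0133 lowest, and only the step from Btla at 0.132 ± 0.0529 to Tigit at 0.0391 ± 0.00868 exceeded the summed SDs of neighbours; in MC Cd274 at 1.64 ± 0.274 (n = 3) came highest. Counting from the top, the MC order was Cd274, Havcr2, Cd86 and Btla, then Lag3 at 0.392 ± 0.0603, Tigit, Pdcd1, Cd80, Ctla4 and Tnfrsf8. Only the step from Btla at 0.899 ± 0.169 to Lag3 exceeded the summed SDs there. In the HC controls the order was Tigit at 3.94 ± 0.141 (n = 2), Cd86, Havcr2, Cd274, Btla, Lag3, Pdcd1, Ctla4, Tnfrsf8 at 0.822 ± 0.105 and Cd80 at 0.799 ± 0.328, and the steps from Cd274 to Btla and from Ctla4 to Tnfrsf8 exceeded the summed SDs. With the HC label Tnfrsf8 came highest at 3.57 ± 0.602 (n = 3), followed by Tigit, Cd86, Cd274, Havcr2, Pdcd1, Lag3, Btla, Ctla4 and Cd80, and no step in that order exceeded the summed SDs. In KMC Cd86 came highest at 1.91 ± 0.989 (n = 2) and Tnfrsf8 lowest at 0.0536 ± 0.0557, and only the step from Ctla4 at 0.254 ± 0.0752 to Tnfrsf8 exceeded the summed SDs. In KC Cd86 came highest at 0.45 ± 0.111 (n = 2) and Ctla4 lowest at 0.00831 ± 0.0117, with no such step.

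Since these genes are mostly expressed in leukocytes, their levels were also set against Ptprc in the same library. Ptprc itself stood at 38.3, 41 and 52.4 CPM in MC against 13.4, 19.8 and 8.4 CPM in the controls. It stood at 62.6, 35.1 and 49 CPM in the libraries labelled HC against 116 and 72.6 CPM, and at 33.4 and 58.6 CPM in KMC against 3.13 and 10.1 CPM in KC. Ptprc thus moved in the same direction as most checkpoint genes in all 3 experiments, although edgeR called it in none (adjusted p of 0.084, 0.195 and 0.0796). DESeq2 called it as higher in MC (adjusted p of 1.26e-05) and in KMC (5.99e-05), and not in HC. There its DESeq2 adjusted p was 0.0299, with a log2 fold change of -0.96, just short of the size that a call required. In whole tissue, fewer cells of a type and less RNA per cell cannot be told apart.

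Relative to Ptprc, Cd86 overlapped its controls in both cerulein experiments, at 0.0961, 0.0935 and 0.091 in MC against 0.0914, 0.0857 and 0.139, and at 0.141, 0.179 and 0.168 with the HC label against 0.127 and 0.161. Cd274 also overlapped in both, with a mean ratio of 0.138 ± 0.0292 (SD, n = 3) in MC against a control ratio of 0.164 ± 0.0497 (SD, n = 3). Btla remained above every MC control, at 0.0961, 0.0625 and 0.0556 against 0.0247, 0.0331 and 0.0428, but by less, with a log2 ratio of means of 1.09 beside a log2 fold change of 2.73 in CPM. It overlapped in HC, at 0.0689, 0.0644 and 0.0771 against 0.0515 and 0.101. Pdcd1 was the other gene above every MC control on this scale, at 0.0097, 0.00631 and 0.0141 against 0.00247, 0.00451 and 0. The MC libraries were below every control for Cd80, Lag3 and Havcr2, although their CPM overlapped the controls (Cd80 and Havcr2) or lay above them (Lag3). Ptprc itself was higher in MC, so a gene with level CPM falls on this scale. Jak1 and Ptpn11, with log2 fold changes of 0.08 and 0.03 in CPM, were also below every control relative to Ptprc. The share of all genes that separated on this scale was not computed, so nothing is read from these separations about the checkpoint genes. Cd80 averaged 0.0183 ± 0.00451 (SD, n = 3) in MC against a control ratio of 0.0469 ± 0.0191 (SD, n = 3), Lag3 averaged 0.0191 ± 0.00405 against 0.0471 ± 0.0248, and Havcr2 averaged 0.0848 ± 0.0234 against 0.168 ± 0.0399. These ratios depend on the denominator. Against the macrophage list in place of Ptprc, the log2 ratio of means in MC shrank from -1.36 to -0.47 for Cd80, from -1.3 to -0.35 for Lag3 and from -0.99 to -0.13 for Havcr2, and turned from -0.17 to 0.75 for Cd86 and from -0.25 to 0.63 for Cd274. The T cell and B cell lists gave larger differences, of -1.66 and -1.92 for Cd80, -1.47 and -1.86 for Lag3 and -1.23 and -1.15 for Havcr2. They gave -0.35 and -0.62 for Cd86 and -0.42 and -0.78 for Cd274. For Btla it went from 1.09 to 2.06 with the macrophage list, 0.81 with the T cell list and 0.36 with the B cell list.

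The Tnfrsf8 difference in the HC experiment grew on this scale, to 0.219, 0.383 and 0.203 against 0.0266 and 0.0356, an 8.62-fold ratio of means. In MC the ratios to Ptprc overlapped, at 0.0123, 0.0103 and 0.00518 against 0.00494, 0.00451 and 0.016, and the result depended on the denominator. The log2 ratio of means in MC was 0.13 with Ptprc, 1.12 with the macrophage list, -0.02 with the T cell list and -0.8 with the B cell list. Lag3 was also above both HC controls relative to Ptprc, at 0.0665, 0.0535 and 0.0538 against 0.0436 and 0.0406, although its CPM overlapped. Of the 10 genes these 2 separated in that experiment, and both were higher. Ptprc itself was lower there, so a gene with level CPM rises on this scale. The share of all genes that separated was not computed, so nothing is read from this count. In KMC Ctla4 was higher than in KC relative to Ptprc, at 0.014 and 0.0122 against 0 and 0.00385, a comparison that rests on 0 and 1 KC counts. Ptprc itself was higher in KMC, so a gene that rose less than Ptprc falls on this scale, and no share of all genes was computed. Relative to Ptprc, Cd86 and Cd274 were lower, Cd86 at 0.133 and 0.163 against 0.435 and 0.192 and Cd274 at 0.0986 and 0.092 against 0.239 and 0.127. Their log2 ratios of means, -1.08 for Cd86 and -0.94 for Cd274, were -0.18 and -0.13 with the T cell list as denominator, -0.61 and -0.49 with the macrophage list and -0.82 and -0.71 with the B cell list. Ratios of Btla in KMC, 0.121 and 0.0707, overlapped those in KC, 0.087 and 0.135.

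**Figure D3:**
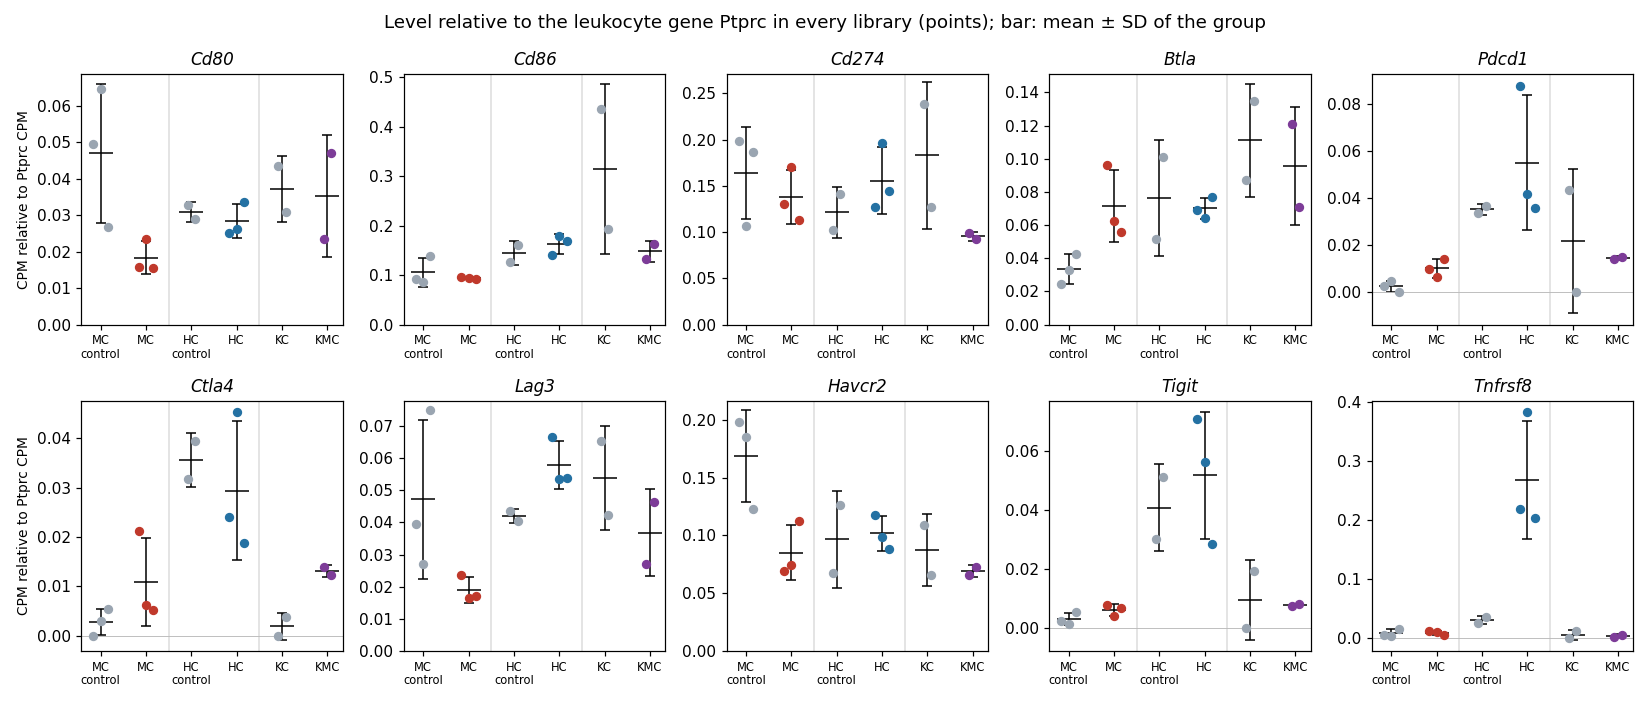
CPM of each gene divided by the CPM of Ptprc in every library (points), with the mean and SD of each group (black bars). Tnfrsf8 in the libraries labelled HC, at 0.203 to 0.383, stands above its controls at 0.0266 and 0.0356, and Cd86 overlaps its controls in both cerulein experiments.

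Cell type markers were examined as fixed lists, and their part in the differences was not tested. Beside the counts of list genes given below for MC, HC and KMC stand the shares over all genes tested: 0%, 0.565% and 0.0191% called by edgeR, 14.7%, 15.9% and 25.6% at an unadjusted p under 0.05, and 3.26%, 2.54% and 13.7% called by DESeq2. The T cell list had 9 genes, all tested in each experiment, and its median log2 fold change was 2.16 in MC, -0.73 in the libraries labelled HC and 2.09 in KMC, against medians of -0.02, 0 and 0.03 over all genes tested. Its summed level was 14.1, 8.91 and 11.2 CPM in MC against 2.78, 3.39 and 2.38 CPM in the controls. It was 58.2, 21.8 and 21.8 CPM in the libraries labelled HC against 73.8 and 40.1 CPM, where the groups overlapped, and 13.1 and 15 CPM in KMC against 2.38 and 3.6 CPM in KC. Replicate 1 was the high library of those labelled HC, as it was for Ptprc and for every checkpoint gene except Ctla4 and Cd80. By mean level its most abundant gene was Lck in MC and Cd4 in the other experiments, and the defining marker Cd3e averaged 0.696 ± 0.181 CPM (SD, n = 3) in MC against a control mean of 0.277 ± 0.155 CPM (SD, n = 3). edgeR called none of the 9; at an unadjusted p under 0.05 there were 9 in MC, 0 for HC and 9 in KMC, and DESeq2 called 6, 0 and 2, the last being 2 of 9 against 13.7% of all genes. In KC replicate 1, Cd8a and Cd8b1 were at 0 counts, and DESeq2 gave both no adjusted p in KMC. Some genes of the other lists had none either, in HC or KMC. For T cells themselves, the study reports by flow cytometry lower numbers of CD4 and CD8 cells in KMC than in KC pancreas. That assay measured cells, at an age below those on the KMC and KC labels, and its relation to these RNA levels was not tested.

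Lists of antigen-presenting cells were summed in the same way. The macrophage list, with 6 genes all tested, summed to 257, 328 and 444 CPM in MC against 169, 299 and 131 CPM, where the groups overlapped, to 516, 415 and 597 CPM in the libraries labelled HC against 1010 and 745 CPM, and to 250 and 572 CPM in KMC against 48.1 and 78.9 CPM in KC. Its median log2 fold change was 0.85, -0.87 and 2.73 in these comparisons; Cd68 was its most abundant gene in MC and Csf1r in the others. The defining marker Adgre1 averaged 69 ± 19.9 CPM (SD, n = 3) in MC against a control mean of 40.3 ± 28.1 CPM (SD, n = 3), and its groups overlapped. edgeR called 0 of the 6 in each comparison, 3, 5 and 6 had an unadjusted p under 0.05, and DESeq2 called 0, 1 and 6. The dendritic cell list, with 7 genes all tested, summed to 35.7, 43.4 and 47.5 CPM in MC against 23.7, 34.6 and 21.6 CPM, to 101, 54.2 and 85.6 CPM in the libraries labelled HC against 200 and 94.4 CPM, and to 43.3 and 108 CPM in KMC against 15.7 and 18.8 CPM in KC; these sums overlapped in HC only. Its median log2 fold change was 1.26, -0.91 and 2.66, with 0 edgeR calls, 4, 1 and 6 genes at an unadjusted p under 0.05 and 2, 1 and 5 DESeq2 calls. Its most abundant gene was Fscn1, while in MC its defining marker Zbtb46 did not move with it, averaging 9.81 ± 1.46 CPM (SD, n = 3) against a control mean of 9.62 ± 1.44 CPM (SD, n = 3). Ccr7 was at 0 counts in KC replicate 1.

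B cell and lymph node markers varied widely inside the MC group. The B cell list, with 6 genes all tested, summed to 74.7, 18 and 6.02 CPM in MC against 3.01, 3.3 and 1.66 CPM in the controls, with Cd79a most abundant and a median log2 fold change of 3.8. The lymph node list, with 3 of 7 genes tested, summed to 125, 42.2 and 15.3 CPM against 6.61, 15.7 and 5.08 CPM, with Cxcl13 most abundant. MC replicate 1 was highest for both lists and was also the highest MC library for Btla, which B cells express too, and for Ctla4. For HC the B cell list summed to 16.5, 16.7 and 17.4 CPM against 31.1 and 46 CPM, and its gene Cd79a was called by edgeR as lower, with a log2 fold change of -1.31 ± 0.19 (SE) and an adjusted p of 0.0499. The call on Cd79a did not hold without HC replicate 2, HC replicate 3 or either HC control, and other scalings or a stricter filter gave an edgeR adjusted p of 0.0505 to 0.0538. Its log2 fold change was -1.29 without HC replicate 2 and -1.37 without HC replicate 3, with edgeR adjusted p of 0.149 and 0.12. It was -1.54 without HC control replicate 1 and -1.04 without HC control replicate 2. The call held without HC replicate 1, with no filter, with the replicate block and with the newer form of the edgeR fit. Over the alternatives that kept at least 2 libraries in each group, the adjusted p ranged from 5.34e-07, by DESeq2, to 0.149. The lymph node list summed to 26.4, 32.8 and 32 CPM there against 46 and 40.4 CPM, with Ltb most abundant. In KMC the B cell list summed to 22.7 and 16.6 CPM against 1.16 and 10.7 CPM, with Cd22 most abundant, and the lymph node list to 14.8 and 18.5 CPM against 2.79 and 14 CPM, with Cxcl13 most abundant. The B cell median was -1.31 for HC and 1.63 in KMC; 6, 3 and 2 of its genes had an unadjusted p under 0.05 in MC, HC and KMC, and DESeq2 called 6, 2 and 1. The lymph node median was 1.07 in MC over 3 genes, and -0.75 for HC and 1.85 in KMC over 6 genes each, with 0 edgeR calls, 2, 1 and 1 genes at an unadjusted p under 0.05 and 0, 0 and 1 DESeq2 calls. In KC replicate 1 Pax5, Cr2 and Fcer2a were at 0 counts, Glycam1 was at 0 counts in HC replicate 3 and HC control replicate 1, and Fcer2a was at 0 counts in MC control replicate 3. The defining marker of the lymph node list, Cr2, averaged 1.44 ± 1.69 CPM (SD, n = 3) against a control mean of 0.124 ± 0.0304 CPM (SD, n = 3).

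Natural killer and regulatory T cell lists were at low levels. The NK cell list, with 4 genes, summed to 2.57, 3.1 and 3.65 CPM in MC against 0.826, 0.655 and 0.674 CPM, to 12.2, 2.64 and 2.92 CPM in the libraries labelled HC against 9.55 and 9.04 CPM, and to 3.07 and 2.95 CPM in KMC against 1.02 and 0.968 CPM. All 4 were tested in MC and KMC and 3 in HC; Klrk1 was most abundant in MC and KMC and Klrb1c in HC, and the defining marker Ncr1 was at 0 counts in MC control replicate 3. Its median log2 fold change was 2.5 in MC, 0.15 for HC and 1.21 in KMC, with 0 edgeR calls, 4, 0 and 1 genes at an unadjusted p under 0.05 and 3, 0 and 1 DESeq2 calls. The regulatory T cell list, with 3 genes all tested, summed to 11.9, 11.6 and 11.2 CPM in MC against 7.11, 7.23 and 9.44 CPM, to 25.9, 26.3 and 23.2 CPM in the libraries labelled HC against 32.8 and 25.8 CPM, and to 8.18 and 9.26 CPM in KMC against 4.36 and 7.04 CPM. Its median log2 fold change was 1.29, -0.44 and 1.4, with 0 edgeR calls, 3, 1 and 1 genes at an unadjusted p under 0.05 and 0, 1 and 0 DESeq2 calls. Ikzf2 carried most of that sum, so the list says little of regulatory T cells alone. Their defining gene Foxp3 averaged 2.22 ± 0.822 CPM (SD, n = 3) with the HC label against a control mean of 5.97 ± 1.82 CPM (SD, n = 2), with a log2 fold change of -1.42 ± 0.36 (SE) and an edgeR adjusted p of 0.148. Ikzf2 overlapped its controls there, at 19.2, 19.5 and 16 CPM against 19.4 and 14.6 CPM. Of the 3 genes, 1 had a log2 fold change above 0 in HC and 2 below. Ctla4, which regulatory T cells express strongly, was lower in the same libraries, and a link to these genes was not tested.

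Epithelial genes formed the last lists. Of 27 acinar genes tested in MC, 26 had a log2 fold change below 0, as had 7386 of all 13902 genes tested, and the list median was -0.62. For HC the median over 28 was -0.09. In KMC all 28 were below 0, as were 7664 of all 15733 genes tested, and the list median was -2.02. edgeR called 0 acinar genes in each comparison, 1, 0 and 2 had an unadjusted p under 0.05, and DESeq2 called 0, 0 and 26. Ctrb1 was the most abundant of them throughout, and the defining gene Cpa1 averaged 16000 ± 9640 CPM (SD, n = 2) in KMC against a KC mean of 67900 ± 22700 CPM (SD, n = 2). The ductal list, with 5 genes all tested, summed to 287, 324 and 367 CPM in MC against 438, 411 and 300 CPM, to 2950, 3760 and 3190 CPM in the libraries labelled HC against 2200 and 2220 CPM, and to 140 and 293 CPM in KMC against 124 and 109 CPM. Its defining marker Krt19 averaged 1810 ± 328 CPM (SD, n = 3) with the HC label against a control mean of 928 ± 44.6 CPM (SD, n = 2); it was the most abundant of the list in both cerulein experiments, and Epcam was in KMC. The ductal median log2 fold change was 0.03, 0.32 and 0.84, with 0 edgeR calls, 1, 2 and 2 genes at an unadjusted p under 0.05 and 0, 0 and 2 DESeq2 calls.

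**Figure D4:**
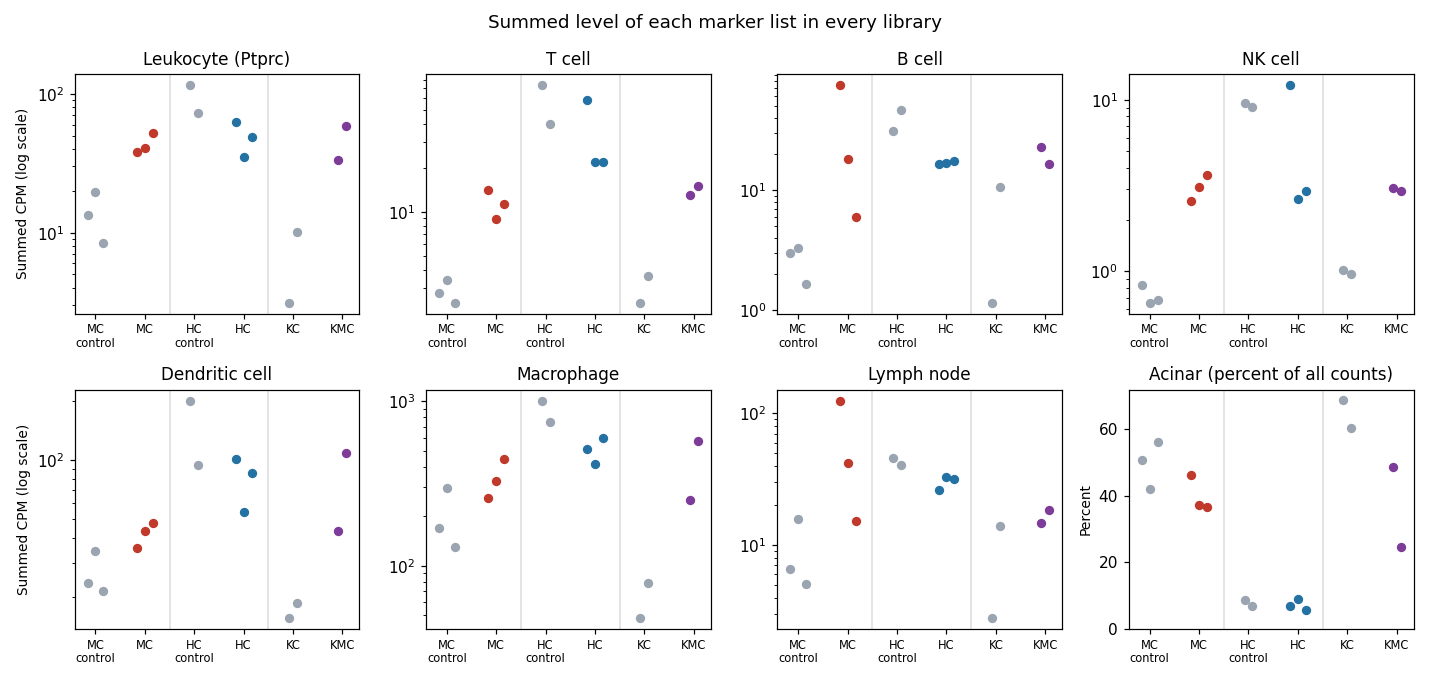
Summed CPM of the marker lists of 7 cell types or tissues (log scale) and the share of counts from acinar genes in percent (linear scale) in every library. Ptprc and the T cell and macrophage lists were higher in KMC than in KC, and the acinar share was 48.68% and 24.67% in KMC and 68.57% and 60.18% in KC.

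Partners of the checkpoint genes, their upstream regulators and their signalling molecules were examined as fixed lists, and edgeR called none of their genes in any comparison. Over all genes tested, 9.2% were higher and 5.46% lower at an unadjusted p under 0.05 in MC, 8.39% and 7.47% in HC, and 16.1% and 9.48% in KMC. DESeq2 called 3.11% of all genes as higher and 0.151% as lower in MC, 1.45% and 1.09% in HC, and 9.25% and 4.47% in KMC. The counts of the 3 lists stand beside these shares. Of 36 partner genes, 29 were tested in MC, where 14 had an unadjusted p under 0.05 and were higher, 0 were lower, and DESeq2 called 8 as higher. For HC 34 were tested, with 3 higher and 10 lower at an unadjusted p under 0.05 and 3 called as lower by DESeq2; in KMC 29 were tested, with 17 higher, 0 lower and 11 called as higher by DESeq2. Median log2 fold changes of the partner list were 0.89 in MC, -0.56 in the libraries labelled HC and 1.95 in KMC, beside -0.02, 0 and 0.03 over all genes tested. The smallest p in MC belonged to Cd40, the CD40 ligand receptor of antigen-presenting cells, with a mean of 4.93 ± 1.11 CPM (SD, n = 3), a control mean of 1.11 ± 0.455 CPM (SD, n = 3) and an edgeR adjusted p of 0.0796. Fgl1, a ligand of LAG3, and Cd244a, a SLAM family receptor, followed with log2 fold changes of 1.63 ± 0.29 (SE) and 1.41 ± 0.26 (SE). Tnfsf18, the ligand of GITR, averaged 1.35 ± 0.575 CPM (SD, n = 3) with the HC label against a control mean of 6.86 ± 1.42 CPM (SD, n = 2), with an edgeR adjusted p of 0.0579. Vtcn1 and Ceacam1, a ligand of TIM3, were higher there, with log2 fold changes of 0.76 ± 0.17 (SE) and 0.97 ± 0.24 (SE). In KMC Cd48, Lgals3 and Sirpa had the smallest p, with log2 fold changes of 2.03 ± 0.38 (SE), 2.49 ± 0.51 (SE) and 2.46 ± 0.51 (SE) and an edgeR adjusted p of 0.0796 each.

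Of 19 regulator genes, 18 were tested in each comparison. At an unadjusted p under 0.05, MC had 8 higher and 2 lower (9.2% and 5.46% of all genes), HC had 0 higher and 4 lower (8.39% and 7.47%), and KMC had 8 higher and 1 lower (16.1% and 9.48%); the median log2 fold changes were 0.45, -0.16 and 0.87. DESeq2 called 4 as higher in MC, 1 as lower in the libraries labelled HC and 5 as higher in KMC. Ciita, the class II transactivator, and Irf4, a factor of activated lymphocytes, were among those with the smallest p in MC, with log2 fold changes of 1.5 ± 0.25 (SE) and 2.14 ± 0.41 (SE). Irf4 had the smallest p of the list in the libraries labelled HC, in the other direction, with a log2 fold change of -1.22 ± 0.2 (SE) and an edgeR adjusted p of 0.0596; Prdm1 and Batf came next at -0.8 ± 0.24 (SE) and -0.78 ± 0.25 (SE). In KMC Ciita and Prdm1 had log2 fold changes of 2.79 ± 0.61 (SE) and 2.22 ± 0.64 (SE).

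Of 14 signalling genes, 13 were tested in MC, with 8 higher and 0 lower at an unadjusted p under 0.05. For HC 14 were tested with 0 in either direction at that p. All 14 log2 fold changes were below 0 there, as were 9232 of all 18407 genes tested. In KMC 13 were tested with 6 higher and 0 lower. Median log2 fold changes were 0.71, -0.45 and 1.09, and DESeq2 called 5 as higher in MC, 0 in the libraries labelled HC and 2 as higher in KMC. Zap70, a kinase of T cell receptor signalling, and Traf1, an adaptor of TNF receptors, were among those with the smallest p in MC, with log2 fold changes of 2.83 ± 0.56 (SE) and 1.69 ± 0.37 (SE). Traf1 led in KMC as well, with a mean of 6.35 ± 2.1 CPM (SD, n = 2) against a KC mean of 1.2 ± 0.442 CPM (SD, n = 2), followed by Ptpn6 and Zap70 at 1.38 ± 0.38 (SE) and 2.1 ± 0.67 (SE) on the log2 scale.

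The genes most like each checkpoint gene were found by Pearson's r over the 15 libraries, with each table centred on its own mean, among 12063 genes; the points share libraries, immune cell content and depth, so r is a description. Cd274 was most like the interferon-induced GTPase genes Gbp9 (r = 0.979) and Gbp7 (r = 0.972) and Sp110 (r = 0.969). Cd86 was most like Casp1 (r = 0.976), Cd40 (r = 0.975) and Cmklr1 (r = 0.972), and Btla was most like Ptpn22 (r = 0.972), Ly75 (r = 0.948) and Ripor2 (r = 0.948). Ctla4 was most like Slc9a9 (r = 0.907), Ccr7 (r = 0.872) and Cd2 (r = 0.866), and the genes most like Pdcd1 included Trib2 (r = 0.906) and Pstpip2 (r = 0.897). Lag3 was most like Elmo2 (r = 0.961), Aplnr (r = 0.959) and Col5a3 (r = 0.95). Havcr2 was most like Lrch3 (r = 0.969), Rmdn2 (r = 0.968) and Cxcr4 (r = 0.955), and Cd80 was most like Cdr2l (r = 0.97), Arap3 (r = 0.959) and Gnpda1 (r = 0.959). Pdcd1 and Ctla4, both with few counts in MC and KMC controls, had an r of 0.554 with each other, and Tigit and Tnfrsf8 were not included because each missed the filter in an experiment.

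In the mouse genome (GRCm38) 4 of the 10 genes lie on chromosome 16 within 8.65 Mb: Cd86 (ENSMUSG00000022901, 36603869 to 36666081, minus strand), Cd80 (ENSMUSG00000075122, 38455561 to 38496335, plus strand), Tigit (ENSMUSG00000071552, 43648867 to 43664146, minus strand) and Btla (ENSMUSG00000052013, 45224315 to 45257670, plus strand). Atg3, which lies 35.8 kb from Btla, had log2 fold changes of -0.14 ± 0.14 (SE) in MC and -0.14 ± 0.1 (SE) in the libraries labelled HC, and Ildr1, 27.9 kb from Cd86, had 0.09 ± 0.13 (SE) and 0.05 ± 0.16 (SE). Slc15a2, 84.1 kb from Cd86, had 0.71 ± 0.26 (SE) and -0.47 ± 0.2 (SE), whereas Casr, 41.7 kb away, had -0.85 ± 0.57 (SE) and 0.45 ± 0.19 (SE). Pla1a, 22.4 kb from Cd80, had 0.62 ± 0.28 (SE) and -1.05 ± 0.26 (SE), whereas Timmdc1, 2.01 kb away, had -0.07 ± 0.14 (SE) and -0.08 ± 0.2 (SE). Ctla4 (ENSMUSG00000026011) and Pdcd1 (ENSMUSG00000026285) lie on chromosome 1, where Ctla4 has Cd28 and Icos, its relatives in costimulation, on either side; Icos had log2 fold changes of 2.85 ± 0.67 (SE) in MC, -0.92 ± 0.5 (SE) in the libraries labelled HC and 2.15 ± 0.65 (SE) in KMC. Cd274 (ENSMUSG00000016496) lies on chromosome 19, 22.8 kb from its relative Pdcd1lg2, which had log2 fold changes of 1.52 ± 0.7 (SE) in MC and -2.01 ± 0.6 (SE) in the libraries labelled HC. Lag3 (ENSMUSG00000030124) lies on chromosome 6, 16.1 kb from Cd4, and Havcr2 (ENSMUSG00000020399) on chromosome 11. The tested genes nearest to Cd274 and Lag3 are not such relatives: Plgrkt, 0.064 kb from Cd274, had log2 fold changes of 0.15 ± 0.11 (SE) in MC and -0.04 ± 0.11 (SE) in HC, and Ptms, 1.98 kb from Lag3, had -0.18 ± 0.13 (SE) and -0.1 ± 0.17 (SE). Around Tnfrsf8 (ENSMUSG00000028602) on chromosome 4, the neighbours Tnfrsf1b, Vps13d and Gm13212 had log2 fold changes of -0.3 ± 0.19 (SE), 0.3 ± 0.1 (SE) and -1.05 ± 0.29 (SE) in the libraries labelled HC.

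Promoter sequences are shown for Btla and Cd274, which moved together, and for Tnfrsf8, which did not move with them in the HC experiment. RefSeq promoters of 300 bases on GRCm38.p6 were matched for 8 of the 10 genes; Cd86 and Lag3 were not matched. Each was searched on both strands for TTCNNNGAA, the site of STAT factors, for motifs like the interferon response element and the kappaB site, and for shorter motifs of AP-1, ETS and GATA factors. The STAT motif was in 8.3% of 32851 promoters, the interferon motif in 3.44%, the kappaB motif in 1.47% and the ETS motif, spelled CAGGAAG, in 13.3%, and none of these was in the 8 windows. The AP-1 motif, spelled TGANTCA, was in 7.81% of all promoters and in 3 of the 8 windows (Cd80, Havcr2 and Tnfrsf8). The GATA motif, spelled AGATAA, was in 11.2% of all promoters and in 2 of the 8 (Cd274 and Tigit). Capitals mark the GATA motif in Cd274 and the AP-1 motif in Tnfrsf8; Btla has none of the 6 motifs. A match is a description of the letters, and no match says only that they are not in this window. The windows lie at chr16:45224087-45224386 on the plus strand for Btla, chr19:29367188-29367487 on the plus strand for Cd274 and chr4:145315115-145315414 on the minus strand for Tnfrsf8, and each is printed 5′ to 3′ on the strand of its gene.
Btla: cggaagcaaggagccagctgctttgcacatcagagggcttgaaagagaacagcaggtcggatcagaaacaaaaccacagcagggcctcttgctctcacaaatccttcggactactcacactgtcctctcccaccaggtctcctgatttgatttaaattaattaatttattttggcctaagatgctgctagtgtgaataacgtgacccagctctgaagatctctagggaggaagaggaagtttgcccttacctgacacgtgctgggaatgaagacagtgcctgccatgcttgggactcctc
Cd274: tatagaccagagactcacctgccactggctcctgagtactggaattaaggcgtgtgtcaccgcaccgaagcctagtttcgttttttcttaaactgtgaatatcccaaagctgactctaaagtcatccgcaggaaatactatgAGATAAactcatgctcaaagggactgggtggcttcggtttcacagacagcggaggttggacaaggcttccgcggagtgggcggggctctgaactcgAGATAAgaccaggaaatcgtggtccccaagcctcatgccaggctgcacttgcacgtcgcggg
Tnfrsf8: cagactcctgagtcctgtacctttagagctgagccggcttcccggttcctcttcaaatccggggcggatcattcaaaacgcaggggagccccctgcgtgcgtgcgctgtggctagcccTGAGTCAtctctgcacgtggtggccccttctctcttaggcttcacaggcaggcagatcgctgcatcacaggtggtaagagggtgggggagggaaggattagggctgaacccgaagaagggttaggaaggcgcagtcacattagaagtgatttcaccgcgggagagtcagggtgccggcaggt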

How the data were processed

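Raw counts per gene were deposited by the authors in 3 tables, one for each experiment, and were used as deposited. The submitters' processing notes name bcl2fastq 2.17.14, STAR 2.6.1a, HTSeq 0.6.1, DESeq2 and the build mm10. A further deposited table, of the authors' own fold changes and p-values between groups, was not used. Each table was filtered with filterByExpr, scaled by TMM and tested over all its genes with edgeR 4.0.16 (quasi-likelihood F test, Benjamini-Hochberg adjustment) in R 4.3.3; DESeq2 1.42.0 was an alternative, run on the same filtered genes, of which 3 in MC, 2858 in HC and 1221 in KMC were given no adjusted p by it. Symbols and exon lengths came from GENCODE M21, which named 49326 of the 49585 identifiers of the larger tables. Log2 CPM used for Pearson's r had a prior of 1 CPM. Other alternatives were DESeq2 size factors, library size alone or without acinar genes, no filter, a filter at 2 CPM, the replicate number as a block, leaving out each library, and, chosen after seeing the data, the newer form of the edgeR fit. The plan made before the counts were read counted calls over all 10 genes and gave Btla and Cd86 no p in MC and HC; calls there are counted over the other 8 genes, a change made after the results were seen. The genes and lists were chosen with earlier results of these data known. Named genes were the 10 checkpoint genes, their 3 most similar genes, any called partner, regulator or signalling gene and otherwise the 3 with the smallest p among those whose groups did not overlap, and the defining and most abundant gene of each cell type list. Flanking genes were picked after their values were seen, some for being the nearest and others for being relatives of a checkpoint gene. A few genes that this rule names, and an allele that KC and KMC mice share, are not reported here.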

Additional observations from a re-analysis of the deposited data

Results flagged for a closer look

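For Ctla4, Btla, Cd86 and Cd274 every MC library lay above all of its controls and every library labelled HC lay below both of its own; Btla and Cd86 were chosen because they differed in this way. The log2 ratio of group means in MC minus that in HC was 4.98 for Ctla4 (3.68 and -1.3), 3.71 for Btla (2.77 and -0.95), 2.36 for Cd86 (1.59 and -0.77) and 2.09 for Cd274 (1.5 and -0.6). The difference was not tested, because the contrast between these experiments chose that pair. Map4k1 was lower in the libraries labelled HC than in both controls, and a switch of labels or columns was not tested. Relative to Ptprc, Map4k1 overlapped those controls, with mean ratios of 0.141 ± 0.0226 (SD) against 0.146 ± 0.0186 (SD). If the HC labels or columns were switched, the HC values would change sign. By assays other than sequencing, the study reports high HPK1 kinase activity and lower Ras activity in HC mice. The value for Ctla4 rests on control libraries with 0, 2 and 1 counts. Ptprc lay on the same sides of its controls, and its part in these differences was not tested. The experiments also differed in the ages on their labels, in the genotype of their controls and in the share of acinar counts, which cannot be told apart from the transgene.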

How the results depend on the processing

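edgeR called 0 genes in MC, 104 in the libraries labelled HC and 3 in KMC. DESeq2 called 453, 467 and 2159, and 3, 2 and 6 of the checkpoint genes. Here and below, checkpoint genes in MC and HC are those other than Btla and Cd86. Scaling by library size alone called 1 gene in MC and 4714 in KMC (4694 higher and 20 lower, against 1 and 2 with TMM), with 9 checkpoint genes; by construction it moved the median over all genes, to 0.29 in MC and 1.47 in KMC, so these calls are not changes relative to the median gene. Leaving acinar genes out of the library size called 51 genes in the libraries labelled HC and 1862 in KMC (1836 higher and 26 lower), with 8 checkpoint genes and a median of 0.64 in KMC. With no filter 395 genes were called in the libraries labelled HC and 9 in KMC.

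The replicate block called 0 genes in MC, 339 in the libraries labelled HC and 2464 in KMC, with 7 checkpoint genes in KMC. Numbers did not pair the MC libraries: deviations of same-numbered libraries from their group means correlated at 0.077, 0.319 and -0.367, and 1 of 3 MC libraries correlated best with its own number. In HC and KMC only 2 numbers were shared, with r of 0.222 and 0.21, and 0.119 and 0.119.

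Leaving out each library in turn gave 0 to 718 calls in MC, 0 to 379 in the libraries labelled HC and 0 to 2312 in KMC, and 0 to 1, 0 to 1 and 0 to 6 checkpoint genes; where 1 library remained in a group it was assumed to vary like the others. The sign changed for Cd80 in MC (-0.05 without MC replicate 2, -0.27 without MC control replicate 3, and up to 0.8 without MC control replicate 2) and for Pdcd1 in the libraries labelled HC (0.15 without HC replicate 2, 0.07 without HC replicate 3 and 0.13 without HC control replicate 1, and down to -1.03 without HC replicate 1). Every other log2 fold change of the 10 genes kept its direction under each alternative run, although Lag3 in the libraries labelled HC was at -0.03 without HC control replicate 1 and sizes in KMC moved, for Btla from 1.59 to 3.9 and for Tigit from 0.91 to 7.1. The cause of these shifts was not tested. Against the T cell, macrophage or B cell list in place of Ptprc, 8 of 30 ratios moved beyond their spread in MC, 0 of 30 in HC and 5 of 30 in KMC. Some of these turned: the log2 ratio of means went from -0.17 to 0.75 for Cd86 and from -0.25 to 0.63 for Cd274 in MC with the macrophage list, and from -0.54 to 0.3 for Lag3, from -0.33 to 0.47 for Havcr2 and from -0.07 to 0.77 for Cd80 in KMC with the T cell list. With 2 or 3 pooled libraries a group, and counts of 3 or fewer in many controls, depth limits Pdcd1, Ctla4, Tigit and Tnfrsf8 in MC and KMC.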
